A study of Mus musculus with 6 samples.

Results

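The core spliceosome genes described here encode the proteins that build the small nuclear ribonucleoproteins (snRNPs), the RNA-protein particles that remove introns from messenger RNA precursors. They are the genes whose mouse symbol starts with Snrp, Snrnp or U2af, or with Lsm, Sf3a, Sf3b or Prpf and a number, without pseudogenes and predicted names. Of 60 rows that matched these symbols, 3 processed pseudogenes (Snrpert, Snrp1c-ps1 and Snrp1c-ps2) were left out, and 57 genes of 49315 in the count tables remained. They were followed in bulk RNA sequencing libraries of gastrocnemius, the large calf muscle, taken at 3 months of age from mice of mixed C57BL/6 and 129 background. The 3 WT libraries were compared with 3 libraries labelled mKO, from mice with a muscle-specific knockout of Hnrnpu. Hnrnpu encodes hnRNP U, also called SAF-A, an abundant nuclear RNA-binding protein known for roles in chromatin organisation, splicing and U2 snRNP maturation. Neither the promoter that drives the knockout nor the exons removed are named in the labels.

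Each snRNP is built on a short uridine-rich RNA. A ring of Sm proteins is placed on the U1, U2, U4 and U5 RNAs in the cytoplasm by the SMN complex, and a related ring of LSm proteins sits on the U6 RNA, while another LSm ring acts in cytoplasmic mRNA decay. U1 recognises the 5′ splice site, U2AF marks the 3′ splice site, and U2 binds the branch point with the help of its SF3a and SF3b subcomplexes. The U4/U6 and U5 particles then join as the tri-snRNP, in which many PRPF proteins act, and the U11 and U12 particles take the place of U1 and U2 on a rare class of introns. Every cell type uses this machinery, so its RNA in whole muscle comes from fibres and from all other cells of the tissue.

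Library totals lay between 32108684 and 42344238 counts, and all 57 genes passed the filter on low counts. Values are CPM, the count divided by the library size in units of 1000000 counts. The size was adjusted by TMM, a method that sets it by the bulk of genes rather than by the most abundant ones. Hnrnpu itself had 233, 235 and 247 CPM in the WT libraries and 209, 210 and 205 CPM in the mKO libraries. The groups did not overlap, but the difference did not pass the test (log2 fold change -0.20, SE 0.10, edgeR adjusted p = 0.147). With library totals in place of TMM it turned to a positive log2 difference of 0.27 (edgeR adjusted p = 0.0402). The exons removed are not named, and how far the gene-level count reflects the knockout was not tested. The tissue carried the RNA of muscle fibres: the summed level of 8 fibre markers (Acta1, Ckm, Mb, Tnnt3, Actn3, Mylpf, Pygm and Des) was 69620 to 80970 CPM in WT and 33580 to 37680 CPM in mKO libraries, with 7 lower and 1 higher in the edgeR test. Markers of other cells moved with the label. All 8 macrophage markers rose (summed 259 to 312 CPM in WT, 539 to 902 CPM in mKO), all 7 markers of dividing cells rose (4.75 to 6.10 CPM against 35.6 to 43.9 CPM), and all 7 endothelial markers fell (214 to 302 CPM against 132 to 139 CPM). Of 8 fibroblast markers 2 rose (1821 to 1962 CPM against 2250 to 2537 CPM), and of 5 satellite cell markers 2 rose and 1 fell (57.1 to 74.0 CPM against 73.6 to 77.7 CPM). Lymphocyte markers stayed near 0 in both groups (0.401 to 0.613 CPM against 0.594 to 1.01 CPM). Of these 7 only Cd4 had enough reads to be tested. It was called higher, from 0.148 to 0.487 CPM (log2 fold change 1.74, edgeR adjusted p = 0.03). None of 5 Schwann cell markers passed the test (20.4 to 29.7 CPM against 9.61 to 40.7 CPM). With library totals 5 fibre and 3 endothelial markers were lower, 7 fibroblast and 3 satellite cell markers higher, and all macrophage and dividing-cell markers stayed higher. In bulk tissue, fewer cells of a type and less RNA per cell cannot be told apart, and the part of these cell type markers in the results on spliceosome genes was not tested.

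For most core spliceosome genes the test did not separate mKO from WT muscle. Of the 57 genes, 6 were higher and 6 lower at an edgeR adjusted p under 0.05, and 45 were not called. The share called, 21.1%, stood beside 37.0% of the 16650 genes tested in the same fit (18.2% higher and 18.9% lower). The split depended on scaling, with 38 higher and 1 lower when library totals replaced TMM and 10 higher and 3 lower with upper quartile factors. The 13 genes whose mKO libraries all lay above the WT libraries and the 10 whose libraries all lay below stood beside 25.3% and 24% of all genes tested. The median log2 fold change of the 57 genes was 0.05, beside 0.02 for all genes tested. Their log2 fold changes were also of smaller size: the median size was 0.20 beside 0.39 for all genes tested, and 86.0% stayed within 0.5 of 0 beside 59.2%. The 57 genes also had more reads (median of the mean CPM 19.9 beside 7.37) and a smaller median SE (0.13 beside 0.18), and the part of this in the smaller log2 fold changes was not tested. Past 2-fold, the set held 2 genes (3.51% beside 16.7% of all genes tested), Snrpb on the low side and Sf3a2 on the high side. Higher and lower calls fell in different particles: 5 of the 6 genes called higher encode U2 snRNP proteins, and 5 of the 6 called lower encode Sm or LSm ring proteins. Left out one at a time, the libraries changed these counts, and the number of genes called lower was 3 without mKO replicate 3 and 9 without WT replicate 2.

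**Figure D1:**
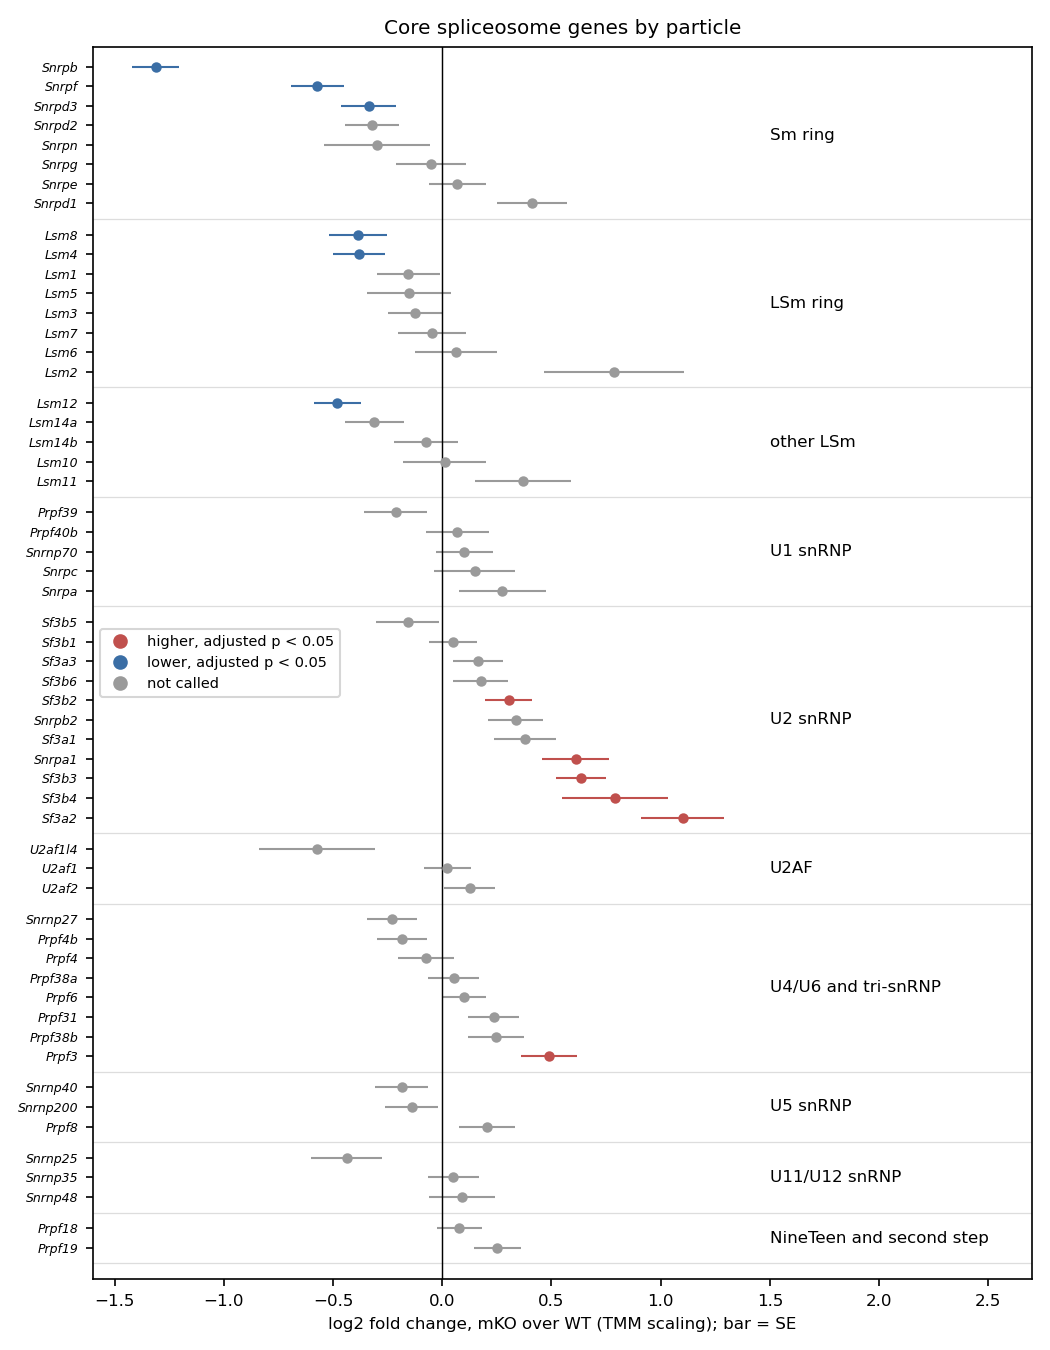
Log2 fold change (mKO over WT, TMM scaling) of 56 of the 57 core spliceosome genes, grouped by particle; points are fitted values, bars are SE, and colours mark the edgeR call at an adjusted p under 0.05. Snrpb at -1.31 and Sf3a2 at 1.10 lie farthest out, the U2 snRNP group lies mostly to the right of 0, and the Sm ring, whose median turns above 0 with library totals, lies mostly to the left.

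Snrpb showed the largest difference of the set. It encodes SmB, a subunit of the Sm ring, and lies on the minus strand of mouse chromosome 2 (GRCm38, chr2:130171414-130179403). Snrpb had 53.5, 47.8 and 47.2 CPM in the WT libraries and 21.1, 19 and 19.7 CPM in the mKO libraries. The groups lay far apart, with every mKO library below every WT library, and the mKO mean was 40.3% of WT (log2 fold change -1.31, SE 0.11, edgeR adjusted p = 2.799e-06). The call was made under all 17 alternative settings and left-out libraries, and the highest edgeR, DESeq2 or limma-voom adjusted p among them was 6.5e-05. No exon base of Snrpb is shared with another gene in the annotation. SmB is known to regulate its own mRNA through an alternative exon that leads to decay, and gene counts do not separate these isoforms.

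Snrpf and Snrpd3 were the other Sm ring genes that fell with TMM scaling; with library totals Snrpf was not called (log2 fold change -0.11) and Snrpd3 stood at 0.13. Snrpf, which encodes SmF, had 17.9, 20.6 and 21.1 CPM in WT and 13.0, 12.9 and 14.3 CPM in mKO libraries. The groups were apart, and the mKO mean was 67.3% of WT (log2 fold change -0.57, SE 0.12, edgeR adjusted p = 0.00274). The annotation places 85.4% of the exon bases of Snrpf under the genes Ccdc38 and 4933408J17Rik, which had at most 3 and 1 counts in any library. How reads in the shared bases were counted is not given, so these low counts do not show that the Snrpf count is complete. Snrpd3, which encodes SmD3, had 29.9, 35.3 and 30.7 CPM in WT and 21.8, 27.9 and 26.2 CPM in mKO libraries, a smaller difference (log2 fold change -0.34, SE 0.12, edgeR adjusted p = 0.0485). All 3 mKO libraries lay below the WT libraries, but the Snrpd3 call was lost in 9 of the 17 alternatives, among them every left-out library except mKO replicate 2 (edgeR adjusted p of 0.0534 without WT replicate 1, 0.112 without WT replicate 2, 0.0693 without WT replicate 3, 0.181 without mKO replicate 1 and 0.105 without mKO replicate 3).

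The remaining Sm ring genes did not pass the test. Snrpd2, which encodes SmD2, had 50.8, 49.9 and 46.6 CPM in WT and 46.3, 35.4 and 36.1 CPM in mKO libraries. Its mKO values lay below WT by a narrow gap (log2 fold change -0.32, SE 0.12, edgeR adjusted p = 0.0575), and it passed without mKO replicate 1 (edgeR adjusted p = 0.0122), the library nearest to WT. Snrpd1, for SmD1, named after its values were seen, went the other way, with every mKO library above WT. This difference did not pass (log2 fold change 0.41, SE 0.16, edgeR adjusted p = 0.0617) but was called higher in 4 of the 17 alternatives. Snrpe and Snrpg, for SmE and SmG, had log2 fold changes of 0.07 and -0.05. Of the 8 Sm ring genes, then, 3 (37.5%) fell and none rose with TMM scaling, beside 18.9% and 18.2% of all genes tested. Without overlap, 4 lay below WT and 1 above WT, beside 24% and 25.3% of all genes tested. The median log2 fold change of the 8 genes was -0.31 and turned to 0.15 with library totals, where 3 were called higher and 1 lower. Among the 57 genes Snrpg had the largest share of reads in near-identical pseudogenes, 18.6% of the joint count of gene and copies, and its copy Gm8186 did not pass the test (log2 fold change -0.06, SE 0.30, edgeR adjusted p = 0.905).

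SmN, the product of the imprinted gene Snrpn, can take the place of SmB in the ring and is known mainly from brain and heart. Snrpn had 17.8, 8.55 and 16.6 CPM in WT and 8.97, 14.3 and 11.6 CPM in mKO libraries. The groups overlapped, WT replicate 2 was low, and the difference did not pass the test (log2 fold change -0.30, SE 0.24, edgeR adjusted p = 0.36); without WT replicate 2 it was -0.57 with an edgeR adjusted p of 0.025. The annotation shares 34.1% of the exon bases of Snrpn with Snurf, Gm18908 and Gm38393. Within a library the ratio of Snrpn to Snrpb counts does not depend on how libraries are scaled. It was 0.333, 0.179 and 0.351 in WT and 0.426, 0.753 and 0.589 in mKO libraries, so every mKO library had more Snrpn per Snrpb than any WT library. The mean log2 ratio moved from -1.86 ± 0.54 to -0.80 ± 0.41 (SD, n = 3), a 2.08-fold change. An exact two-sided permutation test of 3 against 3 libraries gave p = 0.1, its lowest possible value, and 0.35 when adjusted over 7 fixed pairs of related genes.

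**Figure D2:**
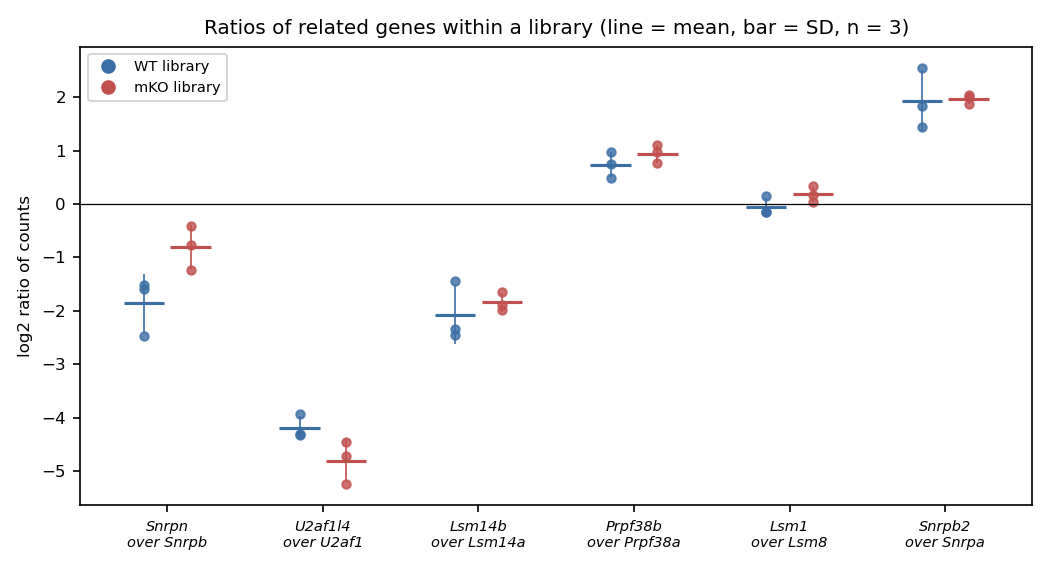
Log2 ratio of the counts of 2 related genes in each library for 6 pairs; points are libraries, lines are means and bars are SD (n = 3). Of these, only the pairs Snrpn over Snrpb and U2af1l4 over U2af1 have WT and mKO libraries that do not overlap.

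The LSm rings share most of their subunits, and 2 of their 8 genes fell with TMM scaling (none, with 4 higher, with library totals). Lsm4, a subunit of both rings, had 31.8, 33.8 and 33.5 CPM in WT and 28.1, 21.5 and 26.5 CPM in mKO libraries. Its groups did not overlap (log2 fold change -0.38, SE 0.12, edgeR adjusted p = 0.0255). Lsm8, the subunit found only in the nuclear ring on U6, had 11.4, 12.3 and 13.7 CPM in WT and 9.74, 9.25 and 9.58 CPM in mKO libraries (log2 fold change -0.39, SE 0.13, edgeR adjusted p = 0.0356). The mKO values of Lsm8 lay close together, all below WT. Both calls depended on single libraries: Lsm4 was lost without WT replicate 3 (edgeR adjusted p = 0.0619), mKO replicate 2 (0.117) or mKO replicate 3 (0.0648), and Lsm8 without WT replicate 3 (0.119), mKO replicate 1 (0.0739), mKO replicate 2 (0.0986) or mKO replicate 3 (0.101). Of the 16 genes of the Sm and LSm rings, 5 (31.2%) were lower and none higher, beside 18.9% of all genes tested called lower. That count was 2 without WT replicate 3, 3 without mKO replicate 2 and 2 without mKO replicate 3, and the median log2 fold change of the 16 genes, -0.15, was 0.31 with library totals. With library totals 7 of the 16 were called higher and 1 lower.

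Lsm1, which replaces LSm8 in the cytoplasmic decay ring, had 10.2, 13.6 and 12.3 CPM in WT and 10.1, 11.6 and 10.8 CPM in mKO libraries. These groups overlapped (log2 fold change -0.16, SE 0.14, edgeR adjusted p = 0.43). The log2 ratio of Lsm1 to Lsm8 counts was -0.05 ± 0.17 in WT and 0.18 ± 0.14 in mKO libraries (SD, n = 3, exact two-sided permutation p = 0.2, 0.467 adjusted over the 7 pairs). Lsm2, at the lowest level of the set, had 0.702, 0.828 and 1.23 CPM in WT and 2.00, 1.5 and 1.27 CPM in mKO libraries. Its groups were apart by little and the difference did not pass (log2 fold change 0.79, SE 0.32, edgeR adjusted p = 0.0732), although it did without WT replicate 3 (edgeR adjusted p = 0.0461). Lsm3, Lsm5, Lsm6 and Lsm7 had log2 fold changes between -0.15 and 0.06 and overlapping groups.

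In the U2 snRNP, 5 of 11 genes rose and none fell, 8 of 11 had all mKO libraries above all WT libraries (18.2% and 25.3% of all genes tested), and the median log2 fold change was 0.34. With library totals 10 of the 11 were called higher. Sf3a2, which encodes an SF3a subunit that helps tether U2 to the branch point, had 3.37, 3.37 and 3.55 CPM in WT and 7.27, 8.98 and 5.83 CPM in mKO libraries. The WT values were nearly equal while the mKO values spread, and the mean rose 2.15-fold (log2 fold change 1.10, SE 0.19, edgeR adjusted p = 0.000661). Of its exon bases, 16.1% are shared with Plekhj1, which lies on the opposite strand and did not pass the test (log2 fold change 0.20, SE 0.15, edgeR adjusted p = 0.336); the library kit does not mark strand, so reads in that overlap cannot be assigned to 1 gene.

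Sf3b3, a scaffold subunit of SF3b, had 32.7, 41.8 and 36.4 CPM in WT and 60.1, 56.5 and 55.6 CPM in mKO libraries. This 1.55-fold rise had groups far apart (log2 fold change 0.63, SE 0.12, edgeR adjusted p = 0.000941). Snrpa1, which encodes U2A′, a protein bound to a stem of U2 RNA, had 7.68, 10.8 and 9.26 CPM in WT and 13.5, 15.8 and 13.1 CPM in mKO libraries. It rose 1.53-fold, without overlap (log2 fold change 0.61, SE 0.15, edgeR adjusted p = 0.00756). Sf3a2, Sf3b3 and Snrpa1 were called under all 17 alternatives, with highest adjusted p values of 0.00364, 0.00639 and 0.0343.

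Sf3b4, an SF3b subunit with RNA-binding domains, had 1.27, 1.53 and 1.12 CPM in WT and 2.34, 2.18 and 2.27 CPM in mKO libraries. The groups did not overlap (log2 fold change 0.79, SE 0.24, edgeR adjusted p = 0.0222), yet at this low level the call was lost without WT replicate 1 (edgeR adjusted p = 0.056), WT replicate 3 (0.0785), mKO replicate 1 (0.063) or mKO replicate 3 (0.0643). Sf3b2, named here after its values were seen, encodes a subunit that contacts the branch point region. It had 52.3, 45.3 and 52.0 CPM in WT and 60.6, 64.8 and 59.3 CPM in mKO libraries, the smallest called fold, 1.23 (log2 fold change 0.30, SE 0.11, edgeR adjusted p = 0.0411). The Sf3b2 call was lost when any 1 library was left out, with an adjusted p of up to 0.108. With these losses the number of U2 snRNP genes called higher was 3 without WT replicate 1, WT replicate 3, mKO replicate 1 or mKO replicate 3, and 4 without mKO replicate 2.

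Snrpb2, which encodes U2B″, the partner of U2A′, had 23.1, 18.7 and 24 CPM in WT and 26.4, 30.5 and 26.2 CPM in mKO libraries. All mKO libraries were above WT, but the difference did not pass the test (log2 fold change 0.34, SE 0.13, edgeR adjusted p = 0.0534). The ratio of Snrpb2 to Snrpa, the U1 protein of the same family, had a mean log2 value of 1.94 ± 0.57 in WT and 1.97 ± 0.10 in mKO libraries (SD, n = 3, exact two-sided permutation p = 0.9). Sf3a1, Sf3a3, Sf3b1, Sf3b5 and Sf3b6 had log2 fold changes between -0.16 and 0.38, none past the test. Among them Sf3b1, the large subunit that holds the branch point, was abundant and nearly level (219 ± 13.7 CPM in WT and 226 ± 19.1 CPM in mKO libraries, SD, n = 3).

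**Figure D3:**
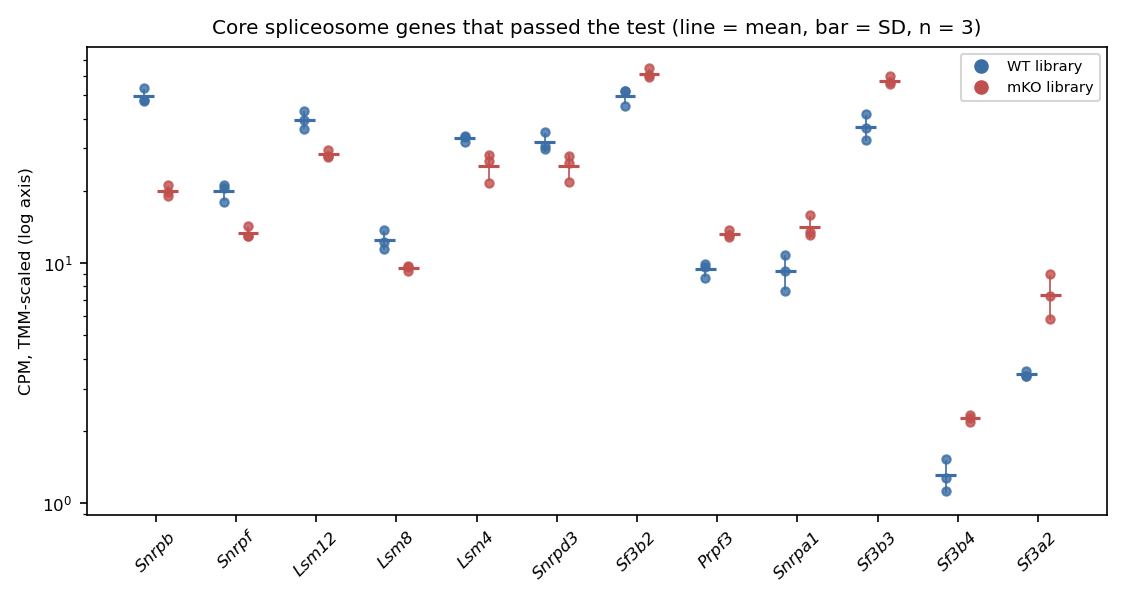
CPM on a log axis in each library for the core spliceosome genes that passed the edgeR test, from the largest fall (Snrpb) to the largest rise (Sf3a2); points are libraries, lines are means and bars are SD (n = 3). WT and mKO points do not overlap for any of these genes; with library totals in place of TMM scaling, Lsm4, Lsm8 and Snrpd3 turn to values above 0.

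Because several U2 snRNP genes rose together, the 250 bases before their start sites were read from the RefSeq promoter table (GRCm38.p6), which held 46 of the 57 genes. Of the genes that passed the test, Snrpb, Sf3b4, Lsm4 and Lsm12 are among the 11 it does not hold. The ETS motif CCGGAAG, searched on both strands, is the binding sequence of a family of factors common at promoters of housekeeping genes. It was present before 7 of 9 U2 snRNP genes (77.8%), 15 of the 46 core spliceosome genes (32.6%) and 10.2% of 17491 protein-coding genes. Within the U2 snRNP it was present before 3 of 4 called genes and 4 of 5 genes not called, so its presence did not follow the call there. Over the 46 genes it was present before 4 of 5 called higher, 0 of 3 called lower and 11 of 38 not called (28.9%). Snrpa1 was the gene called higher that lacked it. The called groups are small, and a difference between them was not tested. The NRF1 motif, of another factor common at housekeeping promoters, was present before 2 of the 9 U2 snRNP genes (22.2%), 10 of the 46 genes (21.7%) and 5.84% of protein-coding genes, and the YY1 motif before 1 of the 46 (2.17%) and 0.463% of protein-coding genes. The letters CCAAT, the core of another common promoter element, were present before 18 of the 46 genes (39.1%) and 39.5% of protein-coding genes, which are near equal shares. Matches are a description of the sequence and do not show binding. Sequence is shown for a called gene of each direction, Sf3b2 (higher) and Snrpf (lower), chosen after their values were seen. Capitals mark the motif letters on either strand, and bases in annotated untranslated regions are not printed.
Sf3b2, minus strand, chr19:5295456-5295705: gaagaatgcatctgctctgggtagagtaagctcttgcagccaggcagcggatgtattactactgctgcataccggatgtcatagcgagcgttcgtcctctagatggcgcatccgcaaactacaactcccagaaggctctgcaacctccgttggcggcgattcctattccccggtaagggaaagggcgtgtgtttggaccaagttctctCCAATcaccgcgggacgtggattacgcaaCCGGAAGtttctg
Snrpf, minus strand, chr10:93589707-93589908: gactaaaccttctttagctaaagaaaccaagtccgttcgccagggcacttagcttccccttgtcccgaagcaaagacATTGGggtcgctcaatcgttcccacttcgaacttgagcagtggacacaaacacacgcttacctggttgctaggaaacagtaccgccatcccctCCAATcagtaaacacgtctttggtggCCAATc
The Sf3b2 stretch holds CCGGAAG 13 bases before the start and CCAAT 42 bases before it, whereas the Snrpf stretch holds CCAAT or its reverse complement 3 times and no ETS motif.

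None of the 6 U1 snRNP genes passed the test, and all had overlapping groups. Snrpa, for the U1A protein, had 6.51, 6.93 and 4.08 CPM in WT and 7.25, 7.59 and 6.32 CPM in mKO libraries. Only WT replicate 3 stood clearly lower (log2 fold change 0.28, SE 0.20, edgeR adjusted p = 0.307). Snrnp70, for U1-70K, which contacts U1 RNA and SR proteins, had 35.7 ± 2.01 CPM in WT and 38.3 ± 6.73 CPM in mKO libraries (SD, n = 3), and Snrpc, for U1C, which supports pairing with the 5′ splice site, had 4.37 ± 0.75 and 4.83 ± 0.35 CPM. Prpf39, an auxiliary U1 protein, had 44.2 ± 8.30 CPM in WT and 38.1 ± 4.24 CPM in mKO libraries; its log2 fold change was -0.21, and -0.36 with an edgeR adjusted p of 0.0289 without WT replicate 2. Prpf40b, a U1-linked bridging protein, had 10.9 ± 0.64 CPM in WT and 11.4 ± 1.75 CPM in mKO libraries (SD, n = 3, log2 fold change 0.07).

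The U2AF genes gave no call either. U2af1, the small subunit that reads the AG of the 3′ splice site, had 36.8, 32.4 and 38.9 CPM in WT and 37.4, 37.9 and 34.7 CPM in mKO libraries, and U2af2, the large subunit that binds the polypyrimidine tract, had 17.4, 20.02 and 17.5 CPM in WT and 19.5, 20.1 and 20.2 CPM in mKO libraries. The groups of both genes overlapped. U2af1l4, a relative of U2af1 also known as U2AF26, had 1.84, 2.12 and 1.93 CPM in WT and 1.41, 0.988 and 1.57 CPM in mKO libraries. These values lay apart but did not pass (log2 fold change -0.57, SE 0.27, edgeR adjusted p = 0.111). Its log2 ratio to U2af1 was -4.19 ± 0.23 in WT and -4.81 ± 0.40 in mKO libraries (SD, n = 3), without overlap (exact two-sided permutation p = 0.1, the smallest possible, 0.35 adjusted over the 7 pairs). The annotation shares 66.1% of the exon bases of U2af1l4 with other genes, among them Psenen, a gamma-secretase subunit on the opposite strand. Psenen fell (22.3 ± 2.46 CPM in WT and 14.2 ± 2.20 CPM in mKO libraries, SD, n = 3, log2 fold change -0.66, SE 0.14, edgeR adjusted p = 0.00299), and its part in the U2af1l4 values was not tested.

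Of 8 genes of the U4/U6 particle and the tri-snRNP, Prpf3 alone rose and none fell. Prpf3, which binds the U4/U6 duplex and is known for mutations in retinitis pigmentosa, had 9.89, 9.66 and 8.67 CPM in WT and 12.8, 13.7 and 13.0 CPM in mKO libraries. The 1.40-fold difference was well apart from the spread (log2 fold change 0.49, SE 0.13, edgeR adjusted p = 0.00969), and it was called under all 17 alternatives with an adjusted p of at most 0.0399. Prpf31, which locks the U4 RNA stem and is another retinitis pigmentosa gene, had 28.9, 24.2 and 30.1 CPM in WT and 32.7, 34.1 and 31.0 CPM in mKO libraries. Its mKO libraries were all above WT, but the difference did not pass (log2 fold change 0.23, SE 0.12, edgeR adjusted p = 0.131). Snrnp27, a tri-snRNP protein near the 5′ splice site, had 72.5, 60.5 and 69.5 CPM in WT and 61.9, 52.6 and 58.0 CPM in mKO libraries (log2 fold change -0.23, SE 0.11, edgeR adjusted p = 0.134); it passed without WT replicate 2 at a log2 fold change of -0.31. Prpf38b, of the family of a factor needed for activation, had 30.9 ± 5.33 CPM in WT and 36.7 ± 1.85 CPM in mKO libraries and passed without WT replicate 3 at a log2 fold change of 0.39. Its ratio to Prpf38a did not separate the groups (log2 0.74 ± 0.24 in WT and 0.94 ± 0.17 in mKO libraries, SD, n = 3, exact two-sided permutation p = 0.3, 0.525 adjusted over the 7 pairs). Prpf4, Prpf4b and Prpf6 had log2 fold changes between -0.18 and 0.10 and overlapping groups.

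None of the 3 U5 snRNP genes that matched the symbols passed the test, and Prpf8 and Snrnp200 were abundant. Other U5 proteins lie outside these symbols. Of 12 further tri-snRNP proteins, 5 were called higher and 3 lower with TMM scaling. Those called higher included Txnl4a, which encodes a U5 protein, and Eftud2 (log2 fold change 1.11 and 0.50, edgeR adjusted p = 0.000152 and 0.00392). Prpf8, the central protein that cradles the catalytic core, had 121, 129 and 99.7 CPM in WT and 125, 151 and 127 CPM in mKO libraries. Snrnp200, the helicase that unwinds U4/U6, had 144, 161 and 130 CPM in WT and 129, 145 and 121 CPM in mKO libraries. The groups of both genes overlapped, with log2 fold changes of 0.20 and -0.14. Snrnp40, a U5 protein with WD40 repeats, had 15.8, 15.9 and 14.15 CPM in WT and 13.8, 12.5 and 14.12 CPM in mKO libraries, apart by a very narrow gap (log2 fold change -0.19, SE 0.12, edgeR adjusted p = 0.259).

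Among proteins of the minor spliceosome, Snrnp25, a U11 protein, had 7.35, 7.14 and 5.99 CPM in WT and 5.22, 5.28 and 4.59 CPM in mKO libraries. All mKO libraries were below WT, and the difference lay just outside the threshold (log2 fold change -0.44, SE 0.16, edgeR adjusted p = 0.0509); it passed with RLE factors, with libraries scaled to the summed counts of the 57 genes, and without WT replicate 3. Snrnp35 and Snrnp48, the other U11 proteins, had log2 fold changes of 0.05 and 0.09 and overlapping groups.

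Of 5 further LSm genes, Lsm12 fell. Lsm12, a protein with an LSm domain that is not part of the rings, had 39.3, 36.3 and 43.2 CPM in WT and 28.0, 27.7 and 29.5 CPM in mKO libraries. The mKO mean was 71.7% of WT, with a wide gap between the groups (log2 fold change -0.48, SE 0.11, edgeR adjusted p = 0.0037). With library totals the Lsm12 difference was -0.02 and not called. Lsm14a and Lsm14b, proteins of cytoplasmic processing bodies, did not pass. Lsm14a had 107, 78.1 and 109 CPM in WT and 74.3, 84.3 and 78.8 CPM in mKO libraries; WT replicate 2 lay among the mKO values, and without it Lsm14a passed at a log2 fold change of -0.46. The log2 ratio of Lsm14b to Lsm14a was -2.07 ± 0.55 in WT and -1.84 ± 0.18 in mKO libraries (SD, n = 3, exact two-sided permutation p = 0.5, 0.7 adjusted over the 7 pairs). Lsm10 and Lsm11, which replace 2 Sm proteins in the U7 snRNP that cuts histone mRNA ends, had log2 fold changes of 0.01 and 0.37, neither past the test.

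Prpf19, the ubiquitin ligase at the centre of the Prp19 complex, was the most abundant of the 57 genes by CPM. It had 253, 259 and 244 CPM in WT and 279, 330 and 293 CPM in mKO libraries. All mKO libraries lay above WT, and the difference did not pass the test (log2 fold change 0.25, SE 0.11, edgeR adjusted p = 0.0878). Prpf18, which acts in the second step of splicing, had 63.2, 68.8 and 70.7 CPM in WT and 73.5, 70.3 and 70.1 CPM in mKO libraries, with overlap.

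The division of reads among the particles gives a view that does not depend on library scaling. Of all counts on the 57 genes, U2 snRNP genes took 19.6%, 19.9% and 20.7% in WT and 22.7%, 22.8% and 22.7% in mKO libraries. Sm ring genes took 9.70%, 9.50% and 9.48% in WT and 7.40%, 6.60% and 7.03% in mKO libraries. Neither class overlapped between groups, and they moved in opposite directions, by 2.71 and -2.55 percentage points. The shares of a library add up to a fixed whole, so a fall in 1 class raises others and these differences are not independent. Snrpb alone accounted for 2.40% ± 0.18 in WT and 0.96% ± 0.08 in mKO libraries (SD, n = 3), a difference of -1.44 points. Prpf19 took 12.2% ± 0.47 in WT and 14.4% ± 0.66 in mKO libraries (SD, n = 3), a difference of 2.16 points. Its class, Prpf19 with Prpf18, went from 15.5% ± 0.48 to 17.8% ± 0.46 (SD, n = 3), also without overlap. The LSm genes outside the rings went from 8.20% ± 0.70 to 6.65% ± 0.12 (SD, n = 3) without overlap. The other 6 classes, the LSm ring and the U1, U2AF, U4/U6 and tri-snRNP, U5 and U11/U12 genes, had overlapping shares, and the largest of their differences was -0.68 points, in the LSm ring.

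**Figure D4:**
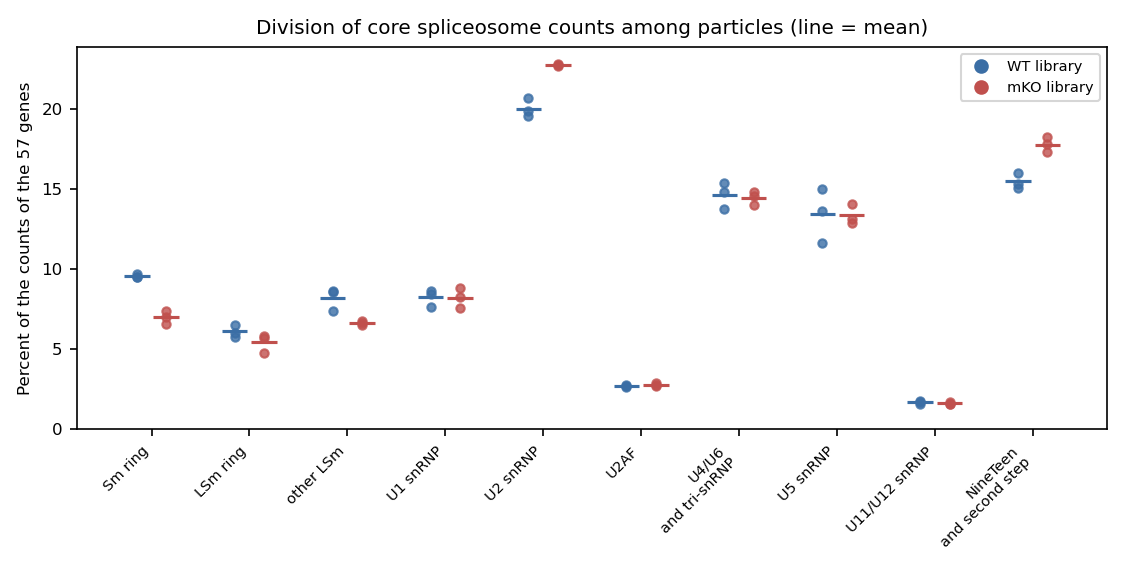
Percent of the counts of the 57 core spliceosome genes taken by each particle in each library; points are libraries and lines are means. The U2 snRNP share lies at 22.7% to 22.8% in mKO against 19.6% to 20.7% in WT libraries, and the Sm ring share at 6.60% to 7.40% against 9.48% to 9.70%.

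The sum of the 57 genes depended on the scaling. It was 2064, 2046 and 2091 CPM in WT and 2035, 2196 and 2038 CPM in mKO libraries with TMM, overlapping between the groups. As a share of all counts it was 0.177%, 0.174% and 0.176% in WT and 0.244%, 0.257% and 0.235% in mKO libraries, without overlap. With library totals in place of TMM the median of all genes tested moved up by 0.47 on the log2 scale, 38 core spliceosome genes were called higher and 1, Snrpb, lower. The medians were then 0.80 for the U2 snRNP, 0.15 for the Sm ring and 0.33 for the LSm ring. Taking off that shift returns the values with TMM by construction. The 5 genes Snrpb, Sf3a2, Sf3b3, Snrpa1 and Prpf3 were called in the same direction with both scalings, whereas Lsm4, Lsm8 and Snrpd3 had log2 fold changes of 0.09, 0.08 and 0.13 with library totals.

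**Figure D5:**
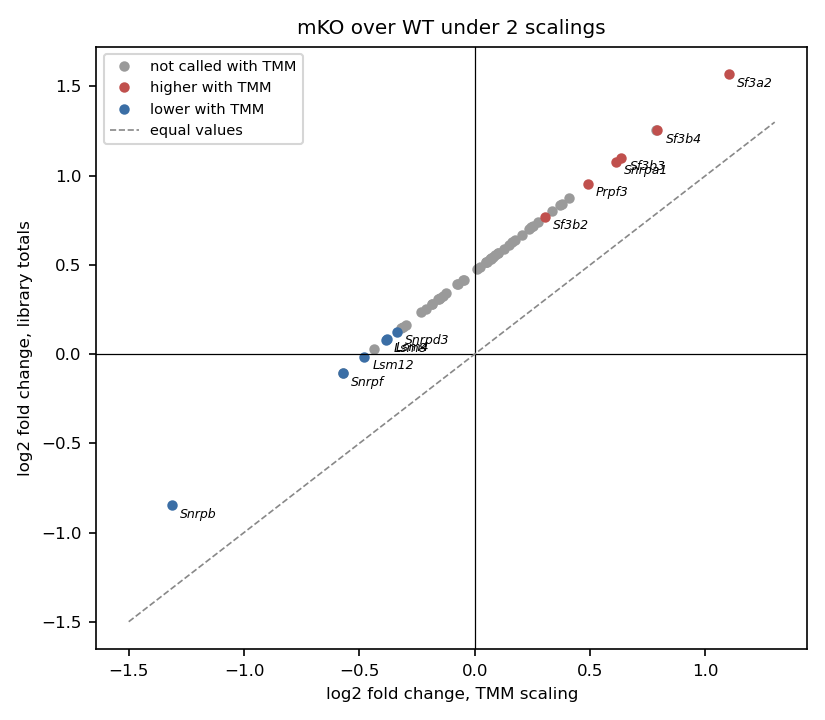
Log2 fold change of 56 of the 57 core spliceosome genes with TMM scaling (x axis) and with library totals (y axis); each point is a gene and the dashed line marks equal values. All points lie above the dashed line by a near constant amount, and Snrpb stays well below 0 on both axes.

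The level of a gene relative to others was compared per kilobase of summed exon length, as WT CPM per kb. This length covers all annotated exons, such as 7278 bases for Prpf19 and 974 bases for U2af1, whether or not muscle mRNA holds them. Ranks across genes therefore depend in part on the annotation. On this scale U2af1 (37.0 ± 3.40), Snrnp27 (36.8 ± 3.40), Prpf19 (34.6 ± 0.97) and Lsm4 (31.8 ± 1.00) stood highest (SD, n = 3). The values of U2af1, Snrnp27 and Prpf19 lay within the spread of the first 2, and Lsm4 lay below. Snrpb (25.1 ± 1.78), Sf3b6 (23.9 ± 3.23), Lsm7 (23.9 ± 3.56) and Snrpf (23.1 ± 1.99) followed and did not differ beyond their spread. Sf3b6 and Lsm7 were named after their values were seen. For Snrpf, 85.4% of the exon bases are shared with other genes, and the counting of reads in shared bases is not given. Its levels per kb, here and in mKO libraries, and its rank are therefore uncertain. The Sm ring genes had a median of 12 CPM per kb and the U2 snRNP genes 5.04 CPM per kb in WT, and Lsm2 (0.292 ± 0.088) was lowest of all. In mKO libraries Snrpb stood at 10.1 ± 0.53 CPM per kb and Snrpf at 15.6 ± 0.89 CPM per kb (SD, n = 3), farther apart than their spread. Across the 57 genes the log2 fold change had a Spearman rho of 0.302 with exon length and -0.152 with mean CPM, beside 0.037 and -0.264 over all genes tested; these are across genes, which are not independent replicates.

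Partner proteins of the same particles, 96 genes in 9 lists, were called about as often as all genes: 21 rose and 13 fell (35.4%), with a median log2 fold change of 0.06. With library totals 65 were higher and 2 lower, and the medians of all 9 lists were above 0, from 0.29 for the U1 partners to 0.73 for the exon junction complex. The calls below are those with TMM scaling. Without single libraries the count of risen genes was as low as 10 (without mKO replicate 2) and that of fallen genes as low as 7 (without mKO replicate 3). The further tri-snRNP proteins had 5 higher and 3 lower of 12 (66.7% called, beside 37.0% of all genes tested). Txnl4a, which encodes the small U5 protein Dim1, rose from 10.2 ± 2.35 to 22.1 ± 1.44 CPM (SD, n = 3, log2 fold change 1.11, SE 0.16, edgeR adjusted p = 0.000152). Sart3, which recycles U4/U6, and Ik rose by log2 fold changes of 0.69 and 0.48 (edgeR adjusted p = 0.00345 and 0.0035). The partners of Prpf19 and of the second step had 7 higher and 2 lower of 19 (47.4% called, beside the same 37.0%). The log2 fold change was 0.56 for Cdc5l, a core protein of the Prp19 complex, 0.62 for the helicase gene Dhx8 and -0.98 for Isy1 (edgeR adjusted p = 0.0016, 0.00588 and 0.000115). Isy1 fell from 26.0 ± 1.76 to 13.2 ± 2.01 CPM (SD, n = 3).

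Of 16 genes of the SMN complex and Sm assembly, which load the Sm ring, 3 rose and 2 fell, a called share of 31.2% beside 37.0% of all genes tested. Gemin7, an SMN complex protein, fell from 25.5 ± 2.29 to 13.0 ± 1.34 CPM (SD, n = 3, log2 fold change -0.97, SE 0.13, edgeR adjusted p = 8.431e-05). Gemin2, which holds the Sm proteins during assembly, also fell (log2 fold change -0.58, edgeR adjusted p = 0.0177), and Ddx20, the Gemin3 helicase, rose (0.47, edgeR adjusted p = 0.00623). Smn1 and Gemin5, named after their values were seen, rose as well (0.76 and 0.45, edgeR adjusted p = 0.03 and 0.0304). The Smn1 groups overlapped.

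Partners of U1 had 3 lower and none higher of 7: Luc7l2, a homologue of a yeast U1 protein, fell from 296 ± 42.0 to 184 ± 16.4 CPM (SD, n = 3, log2 fold change -0.69, SE 0.13, edgeR adjusted p = 0.00123), with Tia1 at -0.66 and Luc7l3 at -0.37 (edgeR adjusted p = 0.00222 and 0.0222). Other U2 and branch point factors had 1 lower and none higher of 10, Htatsf1, a U2-binding protein (-0.47, edgeR adjusted p = 0.00907), beside the 5 of 11 called higher among the U2 snRNP genes themselves; the difference between these lists was not tested. Minor spliceosome factors had 2 higher and 1 lower of 11, with Zcrb1, a U11/U12 protein, at -0.45, Zrsr2, which reads the 3′ splice site of minor introns, at 0.50 and Scnm1 at 0.39 (edgeR adjusted p = 0.01, 0.022 and 0.0479). The exon junction complex, which splicing leaves on mRNA, had 3 higher and none lower of 7: Rbm8a at 0.51, Casc3 at 0.45 and Acin1 at 0.33 (edgeR adjusted p = 0.0184, 0.0275 and 0.0283). Decay partners of the cytoplasmic LSm ring had 1 lower and none higher of 9, the decapping enhancer gene Edc3 (-0.50, edgeR adjusted p = 0.0131). Of 5 U7 and histone mRNA partners, Zfp473 was called higher from very few reads, 2 counts in WT and 47 in mKO libraries, a ratio of 18.2 per scaled library size with an exact 95% counting interval of 4.76 to 155. Among 30 tested genes of the hnRNP and SR families, 4 rose and 7 fell with TMM scaling. This called share, 36.7%, was near the 37.0% of all genes tested.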

How the data were processed

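Total RNA of frozen gastrocnemius was extracted with Trizol and made into libraries with an NEBNext Ultra kit, which does not mark strand, per the labels' protocols. The authors deposited unnormalised counts for each Ensembl gene, 1 table a library. The submitters' processing notes list Trimmomatic 0.36, STAR 2.5.2b, featureCounts and Subread 1.5.2 and the build GRCm38 (mm10). The counting of overlaps and multiply mapped reads is not given in the sources used here. Symbols were matched by gene identifier (48970 of 49315 genes).

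The main test was edgeR 4.0.16 (R 4.3.3, quasi-likelihood, TMM, default expression filter, group as the only term) over 16650 genes, with Benjamini-Hochberg adjustment at 0.05. Alternatives, 17 in all, were DESeq2 1.42.0, limma-voom 3.58.1, other scalings and filters, robust dispersion, a replicate block and leaving out each library. Named genes are the up to 4 lowest p in each class, calls of at least 1.5-fold, the 7 pairs, Hnrnpu and the up to 3 lowest p in each related list; other members are given by range, and 1 gene and its pair are counted but not reported here. Ratios used a pseudocount of 0.5. Copies were matches of at least 95% identity over at least 150 bases. Only the edgeR fit was tested on simulated data, drawn from WT means with as many genes set higher as lower. That simulation did not test the scaling where, as here, TMM factors differ between the groups. Members and lists were chosen with earlier results of these data known. The labels do not say that replicates came from separate animals, and p-values reflect only how far these libraries differ among themselves, which may be technical. List symbols unmatched: 1.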

Additional observations from a re-analysis of the deposited data

How the results depend on the processing

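With library totals, 9283 genes were called, beside 6166, and the 57 core spliceosome genes had 38 higher and 1 lower at a median log2 fold change of 0.5184 (all genes 0.4887). Log2 fold changes turned to 0.0862 for Lsm4, 0.0799 for Lsm8, 0.1264 for Snrpd3, 0.3257 for Snrnp200 and 0.3918 for Lsm14b (edgeR adjusted p = 0.0374 for Snrnp200 and 0.0392 for Lsm14b), the calls of Snrpf (-0.11) and Lsm12 (-0.02) were lost, and 19 of 39 named genes gained a call. With upper quartile factors 10 genes were higher and 3 lower, at a median of 0.1163. These scalings shift all genes alike. With DESeq2, limma-voom, RLE factors, TMM without mitochondrial and the 10 most abundant genes, scaling to the summed counts of the 57 genes, other low-count filters and robust dispersion, 5 to 9 were higher and 5 to 7 lower. With 1 library left out, genes called ranged from 4766 to 6255, core spliceosome genes higher from 4 to 7 and lower from 3 to 9, and their median from 0.01 to 0.0736. The small difference in the log2 ratio of Snrpb2 to Snrpa changed sign when libraries were left out, from -0.2146 to 0.3436. Replicates with the same number did not deviate together across genes (correlations 0.0185, -0.002 and 0.0224, beside -0.0577 to 0.0347 for different numbers). Such correlations cannot exclude a link that touches few genes, and the labels do not say what the numbers mean. With the replicate block, 5519 genes were called and the core spliceosome genes had 5 higher and 5 lower. Exact tests of 3 against 3 libraries cannot go below p = 0.1, and groups of 3 allow no outlier check. Genes near 1 to 2 CPM in WT (Lsm2, Sf3b4, U2af1l4) rest on few reads and have the widest SE.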

Other observations

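The RNAs of the snRNPs themselves were barely counted. Of 11 genes named as U small nuclear RNAs, 9 had at most 20 counts in every library. The other 2, of the minor spliceosome, were Rnu12 (12.9, 7.17 and 8.36 CPM in WT and 14.5, 10.6 and 9.64 CPM in mKO libraries) and Rnu11 (4.44, 4.02 and 5.01 CPM in WT and 4.49, 3.03 and 3.73 CPM in mKO libraries), with overlapping groups and no call (edgeR adjusted p = 0.316 and 0.336). Snhg14, the noncoding host transcript downstream of Snrpn, had 6.22 ± 1.49 CPM in WT and 6.72 ± 1.73 CPM in mKO libraries (SD, n = 3, edgeR adjusted p = 0.739). The processed copy Snrpert of Snrpe, left out of the 57 genes, had 0.991 ± 0.073 and 1.05 ± 0.23 CPM (SD, n = 3, edgeR adjusted p = 0.857). Near-identical copies were found for 14 of the 57 genes, and 13 share some exon bases with another annotated gene.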
